A study of Homo sapiens with 12 samples.

Results

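The loci of the FOXA gene family, FOXA1, FOXA2 and FOXA3, were examined in ATAC-seq peak lists from the human osteosarcoma cell line U2OS. In ATAC-seq, the transposase Tn5 inserts sequencing adapters into open chromatin, and a peak is a stretch where insertions pile up. Every entry of 9 peak lists that lay within a FOXA gene body or the 50 kb on either side of it (RefSeq gene models, GRCh38) was taken. This gave 103 of 925932 entries: 26 at FOXA1, 34 at FOXA2 and 43 at FOXA3. The windows span chr14:37539552-37645249 around FOXA1, chr20:22530998-22635490 around FOXA2 and chr19:45814326-45923797 around FOXA3.

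The study asked which chromatin opens when FOXA2 or SOX2 is expressed, and what the C-terminal domain (CTD) of FOXA2 contributes. Its 12 samples form 6 groups of 2, all of them U2OS cells. In what is called the FOXA2 set here, cells labelled wild type stand beside cells with a Tet-on construct for Flag-tagged full-length FOXA2 (genotype Tet-on FOXA2) and cells with a Tet-on construct for FOXA2 without its CTD (Tet-on FOXA2dCTD). Each of these 6 samples had its own list. In the SOX2 set, a further wild type, whose label also names the SOX2 cell line, stands beside cells with Tet-on SOX2 and cells with a Tet-on fusion of SOX2 and the FOXA2 CTD (Tet-on SOX2FOXA2CTD). Each of these 3 groups had 1 list for its 2 samples, and in the text a SOX2-set entry is called only where its global irreproducible discovery rate (IDR) was at most 0.05. Construct cells received doxycycline at 500 ng/ml for 4 days. The treatment field of both wild types is empty, although the protocol text shared by all samples names doxycycline. Whether a construct line was 1 clone is not given in the sources used here. The samples are labelled as biological replicates.

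FOXA proteins are forkhead transcription factors. They are known as pioneer factors, which can bind their sites in closed chromatin and are needed for the development of endoderm, liver and pancreas. FOXA1 is also a partner of the estrogen and androgen receptors in breast and prostate cells, and FOXA3 is best known from adult liver. SOX2 belongs to the HMG-box family and is also described as a pioneer factor. U2OS cells come from a bone tumour, in which none of the FOXA genes is a lineage marker.

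The lists differed greatly in length, from 19862 entries in the first labelled wild-type library to 161136 in the first full-length FOXA2 library, and from 48142 to 75544 called entries in the SOX2 set. They were not called alike either. In the FOXA2 set the lowest −log10 p in a list lay between 2.01 and 5.43, and the second wild-type and second full-length lists share a naming style and a stricter threshold. Among marker promoters (start site ± 1 kb), SPARC, a matrix protein of bone and other mesenchyme, had an entry in all 9 lists, and 2 to 5 of 5 mesenchymal markers did per list, where 35.2% to 63.9% of all protein-coding promoters did. The liver genes ALB and AFP and the blood cell gene PTPRC had an entry in none. Of all protein-coding promoters, 21.9% had an entry in every list and 26.5% in none. Only markers with a start site could be read: 5 of 8 mesenchymal, 3 of 6 liver and endoderm, 1 of 4 blood and 1 of 6 epithelial genes. HNF4A, a liver and gut factor, had one in the first labelled wild-type list alone, at percentile 14.98. KRT8, an epithelial keratin, had one in the first full-length list and in the wild type of the SOX2 set.

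All lists together placed few entries at the FOXA genes. In list order, the labelled wild types had 4 and 3, full-length FOXA2 had 19 and 8, the CTD deletion had 11 and 9, and the wild type of the SOX2 set, SOX2 and the fusion had 6, 9 and 11 called entries. Per Mb the windows held 12.5 and 9.38 entries in the labelled wild types against 6.55 and 8.28 over chromosomes 1–22 and X, and 59.4 and 25.0 with full-length FOXA2 against 53.2 and 19.1. With the CTD deletion they held 34.4 and 28.2 against 26.0 and 48.5. In the SOX2 set the values were 18.8, 28.2 and 34.4 against 15.9, 21.7 and 24.9. The FOXA windows were thus denser than the genome in 8 of 9 lists, by 1.12 to 1.91 times, and sparser, at 0.581 times, in the second CTD deletion list. These ratios rest on 3 to 19 entries a list. With entries of any IDR, the FOXA3 window held 43 of the 103. The 2 full-length libraries differed from each other more than either CTD deletion library differed from the second full-length one.

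**Figure D1:**
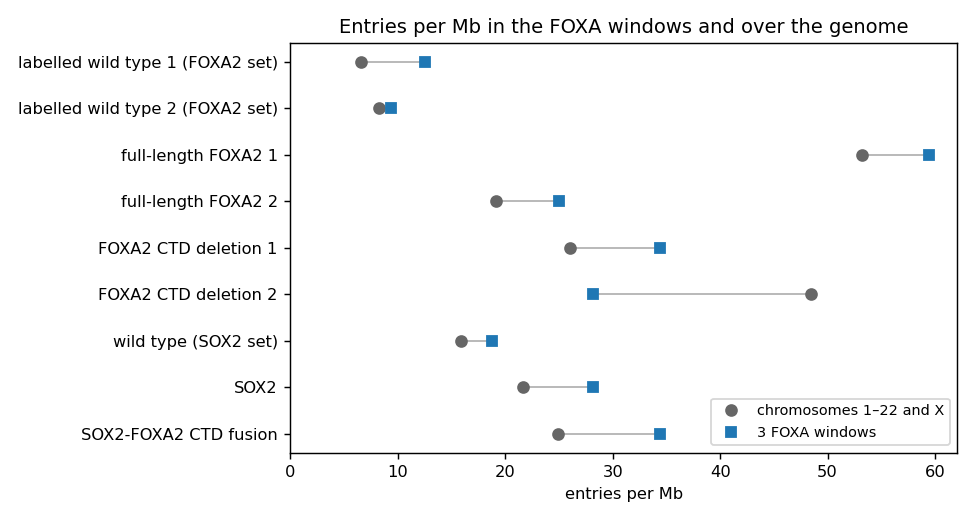
Entries per Mb in the 3 FOXA windows together (blue squares) and over chromosomes 1–22 and X (grey circles), 1 line per list; SOX2-set lists hold called entries only. The squares lie to the right of the circles in 8 lists, and to the left, at 28.2 against 48.5, in the second CTD deletion list.

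Promoter sequences of 4 genes are shown because their start sites differ in the lists: the FOXA1 start adjoins a region open in all 9 lists, the FOXA3 start lay in no entry, the IRF2BP1 start in the FOXA3 window lay in a region called with both FOXA2 constructs and in neither labelled wild type, and LINC00261, the long noncoding RNA next to FOXA2, had no entry either. Each runs 5′ to 3′ from 250 bases before to 50 after the start (RefSeq, GRCh38.p14), with matches to the forkhead letters (TGTTTAC or TATTTAC or else TGTTTGC) or the SOX letters (ACAATGG and also ACAATAG), on either strand, in capitals.
FOXA1 promoter, chr14:37595200-37595499, minus strand: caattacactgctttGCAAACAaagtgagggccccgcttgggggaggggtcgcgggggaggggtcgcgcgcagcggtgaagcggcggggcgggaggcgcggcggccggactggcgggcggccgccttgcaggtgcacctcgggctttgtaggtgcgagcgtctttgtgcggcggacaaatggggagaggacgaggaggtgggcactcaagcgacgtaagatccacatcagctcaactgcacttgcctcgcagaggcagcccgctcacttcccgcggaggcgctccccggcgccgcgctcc
FOXA3 promoter, chr19:45864076-45864375, plus strand: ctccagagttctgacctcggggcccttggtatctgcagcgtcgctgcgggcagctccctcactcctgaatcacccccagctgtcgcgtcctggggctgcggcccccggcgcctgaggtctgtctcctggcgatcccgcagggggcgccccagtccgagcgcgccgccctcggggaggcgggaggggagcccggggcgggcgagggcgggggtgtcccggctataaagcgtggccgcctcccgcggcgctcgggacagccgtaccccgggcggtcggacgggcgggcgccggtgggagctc
IRF2BP1 promoter, chr19:45886092-45886391, minus strand: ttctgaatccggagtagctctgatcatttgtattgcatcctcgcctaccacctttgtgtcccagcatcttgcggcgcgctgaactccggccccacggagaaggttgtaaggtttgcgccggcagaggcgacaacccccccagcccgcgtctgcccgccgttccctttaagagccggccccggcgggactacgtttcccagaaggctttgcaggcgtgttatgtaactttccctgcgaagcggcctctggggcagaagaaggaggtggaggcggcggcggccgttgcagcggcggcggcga
LINC00261 promoter, chr20:22578593-22578892, minus strand: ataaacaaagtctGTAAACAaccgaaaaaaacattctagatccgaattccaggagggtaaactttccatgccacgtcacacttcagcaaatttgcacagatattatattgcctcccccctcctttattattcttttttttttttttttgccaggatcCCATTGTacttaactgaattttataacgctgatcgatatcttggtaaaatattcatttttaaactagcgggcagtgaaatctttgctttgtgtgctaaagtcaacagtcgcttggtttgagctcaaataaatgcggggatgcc
Of 12 genes that overlap the windows, 11 had a promoter sequence in the table used here. FOXA2 is the one without. The FOXA1 promoter holds GCAAACA, the reverse complement of TGTTTGC, from position 16. The promoter of TTC6, which points away from FOXA1 and overlaps it, holds the same bases as TGTTTGC from its position 100, at chr14:37595478-37595484. TGTTTGC was found in 3.17% of 15812 protein-coding promoters of this length. The LINC00261 promoter holds GTAAACA, the reverse complement of TGTTTAC, from position 14 (TGTTTAC was in 2.68% of promoters). It also holds CCATTGT, the reverse complement of ACAATGG, from position 158 (2.41%). No other promoter of the windows held any of the letters, and 7.58% of all promoters held at least 1 of the forkhead ones. The FOXA3 promoter is 76.3% G or C, the LINC00261 promoter 37%, and the median over all protein-coding promoters was 62.7%. A match describes letters and does not show that a factor binds there.

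FOXA2, the gene of the construct itself, carried the entry with the highest within-list percentile of the 3 windows in 5 of the 6 lists of the FOXA2 set. In the first labelled wild type and in the 3 SOX2-set lists, entries at the FOXA1/TTC6 or SYMPK start ranked higher. The gene lies on the minus strand at chr20:22580998-22585490 (4493 bp), so that its start is at the higher coordinate. Its 3′ part held a peak in all 6 lists of the FOXA2 set, the labelled wild types included, and in the fusion list. The wild type of the SOX2 set and SOX2 had no entry there at any IDR. The FOXA2 constructs carry FOXA2 sequence, and the fusion carries its CTD. In peak lists, signal from a construct and signal from the cell's own FOXA2 gene cannot be told apart.

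In the labelled wild types this peak was at chr20:22581848-22582527 and chr20:22581827-22582860, with a deposited fold enrichment over the library's own background of 5.19 and 14.7. With full-length FOXA2 it was at chr20:22581715-22583222 and chr20:22581746-22583295, with a fold enrichment of 5.76 and 44.3. With the CTD deletion it was at chr20:22581782-22582925 and chr20:22581754-22583047, with a fold enrichment of 6.94 and 7.07. The groups overlap in fold enrichment, since the second labelled wild type lies above 3 of the 4 construct libraries. Fold enrichment and −log10 p are the authors' values and were used only to describe and rank peaks within a list.

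Ranked by −log10 p within its own list, the peak stood at rank 58 of 57946 in the second full-length library, at 615 of 161136 in the first, and at 832 of 78820 and 363 of 146854 with the CTD deletion. The within-list percentiles (100 is the strongest peak) were 99.6 and 99.9 with full-length FOXA2 and 98.9 and 99.8 with the CTD deletion. In the labelled wild types they were 67.2 and 98.1, at ranks 6506 of 19862 and 472 of 25088. All 4 construct libraries were above both labelled wild types, the second of which was near them and the first far below. Since the lists differ in length, a difference in percentile between lists is not a measured change in accessibility. The peak names of the first labelled wild-type list begin with dc0, those of the CTD deletion lists with dc4-1p and dc4-2p and those of the first full-length list with FL4-1p. What these stand for is not given in the sources used here, so the label of that wild type could not be checked from its names, and their part in the result was not tested.

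The width of the peak separated the groups. It spanned 680 and 1034 bp in the labelled wild types, 1508 and 1550 bp with full-length FOXA2, and 1144 and 1294 bp with the CTD deletion. The means were 857 ± 250 bp, 1529 ± 29.7 bp and 1219 ± 106 bp (SD, n = 2 each), with no overlap between the groups. With 2 libraries a group, an exact permutation test cannot give a two-sided p below 0.333, and none is given. Of 6386 regions with 1 peak in each of the 6 libraries, 44.4% had both full-length peaks wider than both labelled wild-type peaks, and 52.5% had both CTD deletion peaks wider. Both full-length peaks were wider than both CTD deletion peaks in 14.9%. The first 2 orders are thus common in these lists and the third less so. At the shared region near FOXA1 only the CTD deletion peaks were wider than those of the labelled wild types, and at the shared region near FOXA3 both constructs were.

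The edges show where the widths differ. The edge toward the 3′ end lay 3642 and 3663 bp from the FOXA2 start in the labelled wild types. With full-length FOXA2 it lay 3775 and 3744 bp from the FOXA2 start, and with the CTD deletion 3708 and 3736 bp. The edge toward the start lay 2963 and 2630 bp from the FOXA2 start in the labelled wild types, 2268 and 2195 bp with full-length FOXA2, and 2565 and 2443 bp with the CTD deletion. The full-length peaks therefore reached farthest at both edges and the CTD deletion peaks lay between. The range was narrower at the 3′ edge. The fusion entry, at chr20:22581797-22582528, ran from 2962 to 3693 bp and was 732 bp wide. Its edge toward the start resembles that of the first labelled wild-type peak. Its 3′ edge lay between those of the labelled wild types and of the CTD deletion.

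The fusion entry was modest in rank. It had a −log10 p of 6.58, from inputs of 6.58 and 7.92, an IDR of 0.0241 and percentile 64.5, which is rank 63016 of the 177650 entries in that list. A region called with the fusion and without an entry in the SOX2 or wild-type list at any IDR made up 4.57% of 102872 regions of the SOX2 set. When every SOX2-set list was limited to its 48142 strongest entries, the fusion entry was no longer among them. No exon annotation was used here, so whether these peaks follow coding exons was not analysed.

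**Figure D2:**
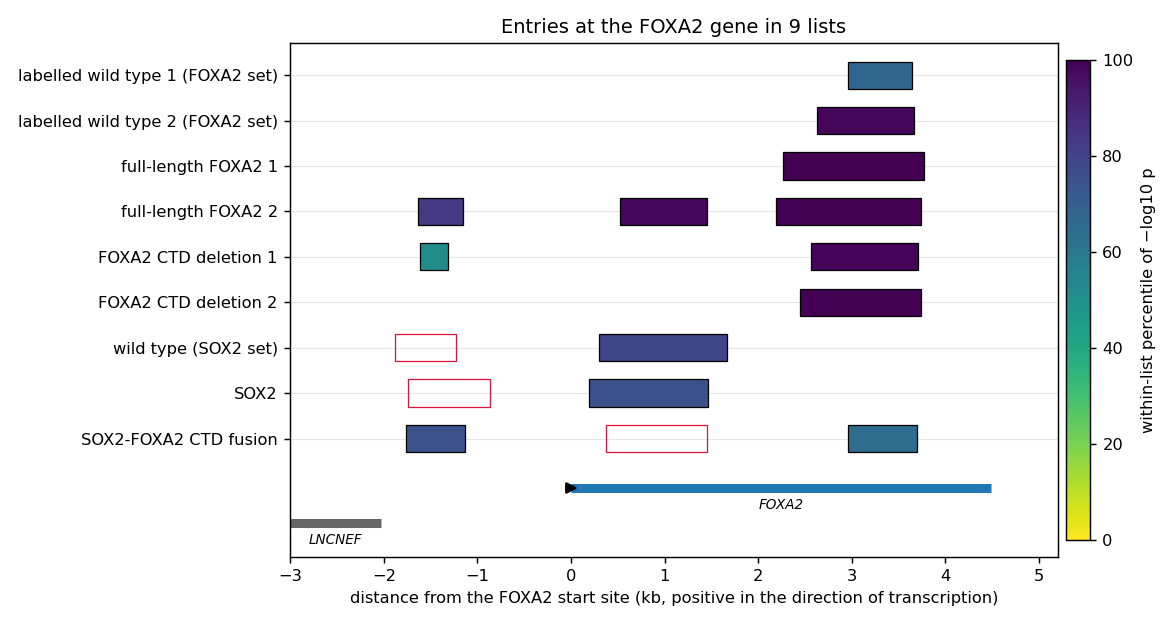
Entries at the FOXA2 gene by list, drawn by distance from the FOXA2 start in kb, positive in the direction of transcription; colour gives the within-list percentile and hollow red boxes are SOX2-set entries with an IDR above 0.05. The boxes between 2.2 and 3.8 kb are widest with full-length FOXA2 and missing in the wild type of the SOX2 set and in SOX2, which have an entry near the start instead.

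The 5′ part of FOXA2 had another pattern. A region from 191 to 1668 bp after the start was called in the wild type of the SOX2 set (chr20:22583822-22585189, −log10 p 12.8, percentile 78.9) and with SOX2 (chr20:22584023-22585299, 10.9, percentile 75.3). The fusion list had an entry there that failed the IDR threshold (−log10 p 4.82, IDR 0.126, percentile 48.3). In the FOXA2 set the second full-length library alone had a peak there, at chr20:22584036-22584963, with a fold enrichment of 16.4 and percentile 98.0. Neither labelled wild type had one. The wild-type lists of the 2 sets thus differ at both ends of the FOXA2 gene. At the 5′ end the SOX2-set wild-type entry stood at rank 23394 of 110813. The labelled wild-type lists hold 19862 and 25088 peaks in all, so its absence there does not show a difference between the cells.

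From 1.15 kb upstream of the FOXA2 start, between the gene and the noncoding RNA gene LNCNEF, a region was called in the second full-length library (chr20:22586644-22587121, fold enrichment 9.89, percentile 83.9), in the first CTD deletion library (3.13, percentile 51.9) and with the fusion (percentile 74.7). It was called in 1 library of each FOXA2 construct and so did not count as gained with either. The wild-type and SOX2 lists of the SOX2 set had entries there that failed the IDR threshold, and the inputs of the SOX2 entry were far apart, with −log10 p values of 1.88 and 14.96.

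Together these entries covered much of a short gene. In list order, 15.1% and 23.0% of the FOXA2 gene body lay inside peaks in the labelled wild types, 33.6% and 55.2% with full-length FOXA2, and 25.5% and 28.8% with the CTD deletion. In each of these 6 lists at most 0.571% of 19974 genes had a share as high. The share was 30.4% in the wild type of the SOX2 set, 28.4% with SOX2 and 16.3% with the fusion (40.4% with entries of any IDR), and 1.49%, 1.73% and 3.28% of genes had a share as high. The first 2 of these shares came from the 5′ part of the gene and that of the fusion from the 3′ part. By contrast, the FOXA1 gene body had a peak in the first full-length list alone, which covered 5.48%, and the FOXA3 gene body in the first CTD deletion list alone, which covered 3.67%.

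The rest of the FOXA2 window had no region called in more than 2 lists of either set. The LINC00261 and LNCNEF starts lay in no entry of any list. Within LINC00261, chr20:22574913-22575873 was called with SOX2 and with the fusion (percentiles 62.3 and 70.9), and the wild-type entry there had a −log10 p of 5.92 and an IDR of 0.0748, which is above the threshold. From 30.95 kb upstream of FOXA2, chr20:22616442-22617697 was called with SOX2 (−log10 p 17.7, percentile 88.4) and with the fusion (5.76, percentile 57.8), and the wild-type entry had a −log10 p of 3.35. A region in LNCNEF, chr20:22598709-22599163, was called in the wild type alone, with entries above the IDR threshold in the other 2 lists. In the FOXA2 set, chr20:22619304-22619768 was called in the first full-length and second CTD deletion libraries, at percentiles 49.4 and 51.5.

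At FOXA1 (chr14:37589552-37595249, minus strand), 1 region was called in all 9 lists. In the merged peaks it covers the start of TTC6 (the peaks of 4 lists contain that start, and those of the other 5 begin past it), a gene of tetratricopeptide repeats that runs in the opposite direction, and comes within 362 bp of the FOXA1 start in the FOXA2 set (chr14:37595611-37596468) and within 221 bp in the SOX2 set (chr14:37595470-37596773). Its percentiles were 42.4 and 32.1 in the labelled wild types, 92.9 and 58.8 with full-length FOXA2, and 68.1 and 78.8 with the CTD deletion. In the SOX2 set they were 89.9 in the wild type, 95.0 with SOX2 and 93.1 with the fusion. All 4 construct libraries of the FOXA2 set lay above both labelled wild types. Promoters in general gave the same order. Among all protein-coding promoters with an entry, the median percentile was 65.1 and 64.2 in the labelled wild types. It was 87.8 and 74.4 with full-length FOXA2 and 76.7 and 87.4 with the CTD deletion. No difference particular to FOXA1 is therefore read from this order. The wild type of the SOX2 set ranked the region within a few points of its constructs. The fold enrichments, 5.22 and 5.30, 5.61 and 7.16, and 4.34 and 4.55, gave another order, with the CTD deletion lowest.

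How close the peak came to FOXA1 went with its width only in part. It was 483 and 200 bp wide in the labelled wild types, 426 and 382 bp with full-length FOXA2, 686 and 855 bp with the CTD deletion and between 1168 and 1303 bp in the SOX2 set. Only the CTD deletion lists and the 3 SOX2-set lists had an entry within 500 bp of the FOXA1 start. The 300 bases of the FOXA1 promoter printed above were touched by the 3 SOX2-set lists alone. The TGTTTGC match lay inside the entries of the wild type of the SOX2 set and of the fusion, and just outside that of SOX2, which began at 37595490.

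A second FOXA1 region was called with the CTD deletion. It lies 14.6 kb downstream of the FOXA1 start, past the 3′ end of the gene and in no annotated gene, at chr14:37580069-37580650. Both CTD deletion libraries had it, with a fold enrichment of 4.77 and 4.09 and percentiles 76.7 and 69.9. Neither labelled wild type nor full-length library had a peak there, though the first full-length list had one 200 bp wide that began a short way off, at chr14:37580897-37581096 (percentile 49.4). SOX2 and the fusion called the same stretch, at percentiles 86.3 and 90.7. The wild type of the SOX2 set had an entry there with input −log10 p values of 6.15 and 10.5 that missed the IDR threshold at 0.0868.

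Within TTC6, 25.4 kb upstream of FOXA1, chr14:37620659-37621440 was called with the fusion (percentile 77.0), and the SOX2 entry failed the IDR threshold (percentile 38.1). Counting the one that begins at 37580897, 5 FOXA1 regions of the FOXA2 set were called in the first full-length library alone, at percentiles between 3.96 and 49.4. One of them, chr14:37593845-37594156, is the only entry inside the FOXA1 gene.

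**Figure D3:**
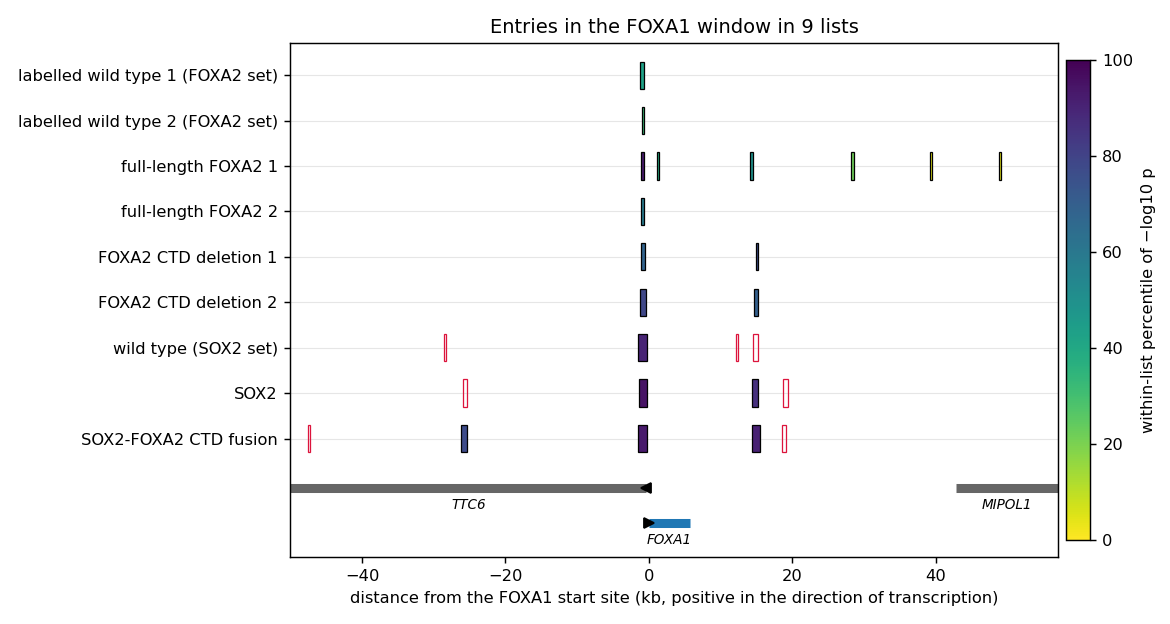
Entries in the FOXA1 window by list, drawn by distance from the FOXA1 start in kb, positive in the direction of transcription; colour gives the within-list percentile and hollow red boxes are SOX2-set entries with an IDR above 0.05. All 9 lists have a box within 1 kb of the FOXA1 and TTC6 starts, and the region at 14.6 kb is filled in both CTD deletion lists, SOX2 and the fusion.

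The FOXA3 window (gene at chr19:45864326-45873797, plus strand) held the most entries, 43, and only 1 of them lay in the FOXA3 gene. Its own promoter, printed above, was touched by no entry of any list at any IDR. The single entry in the gene body, chr19:45872455-45872802, came from the first CTD deletion library at percentile 37.6. The entries clustered at the starts of 3 neighbours: 27 lay within 1 kb of the SYMPK, IRF2BP1 or MYPOP start. The 8 within 1 kb of the FOXA3 start were among these, since each also lay within 1 kb of the SYMPK start. Which of the 2 genes they act on was not tested. Over all 3 windows, 41 of 103 entries were within 1 kb of a start site, SOX2-set entries of any IDR included. With called entries only, these were 3 of 4 and 2 of 3 in the labelled wild types and 5 of 19 and 5 of 8 with full-length FOXA2. They were 6 of 11 and 4 of 9 with the CTD deletion, and 4 of 6, 5 of 9 and 3 of 11 in the SOX2 set. Genome-wide, the share of called entries was between 8.59% and 31.9%, by list. It was counted over most of each list, such as 18804 of 19862 entries in the first labelled wild type. The windows were chosen around genes.

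SYMPK encodes symplekin, a scaffold of the machinery that forms mRNA 3′ ends, and starts upstream of FOXA3 in the opposite direction. The region at its start, chr19:45862736-45863628, was called in 6 of 6 lists of the FOXA2 set, at percentiles 86.5 and 32.1 in the labelled wild types, 74.2 and 79.7 with full-length FOXA2, and 78.0 and 87.8 with the CTD deletion. The groups overlap. In the SOX2 set, SOX2 had it at percentile 96.4, with a −log10 p of 29.5. The wild type and the fusion had entries that failed the IDR threshold, with input −log10 p values of 27.2 and 3.47, and of 24.3 and 3.46. Each of these 2 lists thus had 1 strong and 1 weak input at a region that counts as gained with SOX2.

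IRF2BP1, a corepressor that binds IRF2, lies downstream of FOXA3. The region at its start, chr19:45886030-45886918, 21.7 kb from the FOXA3 start, was the only one in the 3 windows gained with both FOXA2 constructs. Its strongest peak stood at percentiles 95.0 and 67.5 with full-length FOXA2 and 89.9 and 83.6 with the CTD deletion, and both labelled wild types had no peak. The wild type of the SOX2 set, SOX2 and the fusion all called it, at percentiles 73.3, 81.5 and 69.2. The IRF2BP1 promoter printed above was touched in both full-length lists and the 3 SOX2-set lists, while the CTD deletion peaks lay beyond it. The region at the start of MYPOP, a Myb-related repressor, at chr19:45902373-45903481, was called in 5 of 6 lists of the FOXA2 set. It was missing in the second labelled wild type, and its percentiles were 13.9 in the first, 98.9 and 53.6 with full-length FOXA2, and 63.3 and 90.0 with the CTD deletion. All 3 SOX2-set lists had it, at 89.3, 92.3 and 90.8.

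Farther away, chr19:45816941-45818014 inside SYMPK was called in all 3 SOX2-set lists, at percentiles 78.4, 74.7 and 69.4, and in the first full-length library. A small region near the end of IRF2BP1, chr19:45883374-45883665, passed the IDR threshold with the fusion alone (percentile 61.3), and the wild-type and SOX2 lists had entries that failed it. Within SYMPK, peaks of the first full-length library (chr19:45846275-45846634) and of the second full-length and first CTD deletion libraries (chr19:45846644-45846995) lay a few bases apart and counted as 2 regions.

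**Figure D4:**
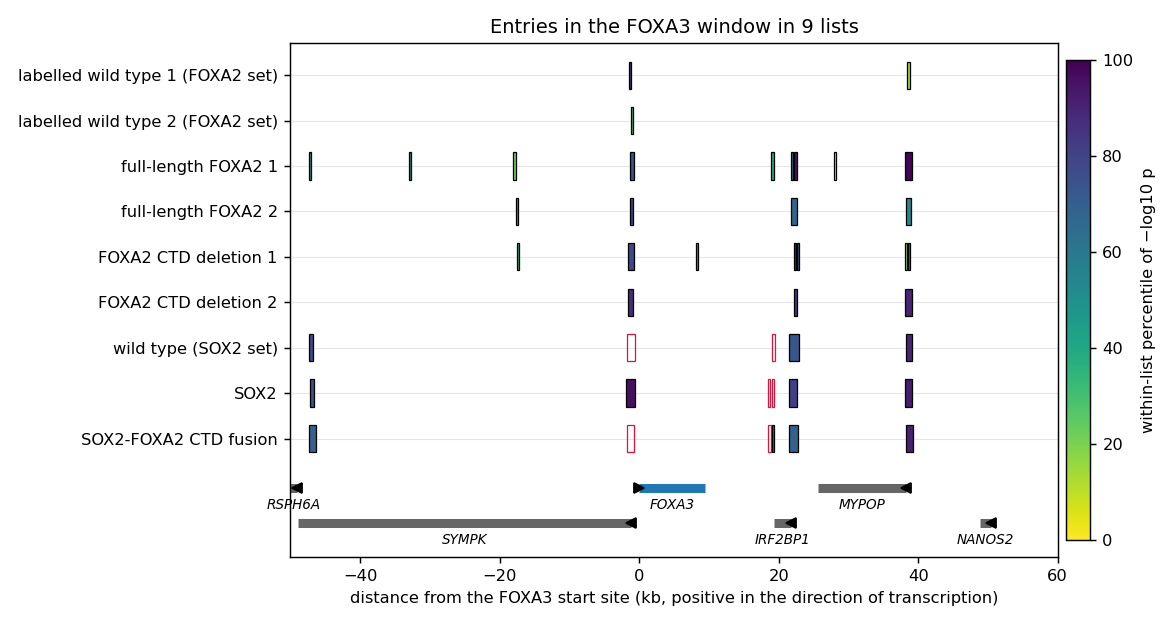
Entries in the FOXA3 window by list, drawn by distance from the FOXA3 start in kb, positive in the direction of transcription; colour gives the within-list percentile and hollow red boxes are SOX2-set entries with an IDR above 0.05. Boxes line up at the SYMPK, IRF2BP1 and MYPOP starts, and only the first CTD deletion list has a box in FOXA3.

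Counted over all 3 windows, few regions changed state in both libraries of a group. Peaks of the FOXA2 set merged into 26 regions (7 at FOXA1, 8 at FOXA2, 11 at FOXA3). Gained regions are those with a peak in each of the 2 libraries of a construct and none in the labelled wild types. With full-length FOXA2, 1 of 26 was gained, the IRF2BP1 region, where 9.06% of 276021 regions of the genome were. With the CTD deletion 2 of 26 were gained, the IRF2BP1 region and the region downstream of FOXA1, against 8.72%. None was lost with either, against 0.155% and 0.0576%. The region downstream of FOXA1 was also the only one called in both CTD deletion libraries and in no full-length library (2.36% of the genome's regions), and 0 of 26 were in the opposite class (1.82%). With each list limited to its 19862 strongest peaks, the CTD deletion gained 0 and lost 1, and no genome-wide share is given for that setting. The counts over full lists are few and near or below the background. Nothing particular to the FOXA loci is read from any of these counts.

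Of the 26 regions, 3 were called in all 6 lists: the FOXA1/TTC6 start, the 3′ part of FOXA2 and the SYMPK start (3.15% of the genome's regions). At the other end, 17 were called in 1 list alone, against 69%, and 12 of these were in the first full-length list. Within lists of the same naming style, the second full-length library had 5 regions that the second labelled wild type lacked (13.6% of the genome's regions) and the first full-length library had 14 that the first labelled wild type lacked (51.4%). The CTD deletion libraries had 6 and 5 that the first labelled wild type lacked (22.6% and 45.7%). In these 4 pairs, 0 regions were called in the wild type alone (1.84%, 1.55%, 1.73% and 1.03% of the genome's regions in the same order). A shared naming style is not a shared threshold. The lowest −log10 p was 3.44 in the first labelled wild type and 2.01 in the first full-length and both CTD deletion lists. That wild type therefore lists no peak as weak as the weakest of these libraries. The wild type of the SOX2 set called 1 of the 2 CTD deletion gains and had an entry at a higher IDR for the other. Genome-wide, that wild type called 26.4% of the CTD deletion gains and had an entry at any IDR for 42.6%. For full-length gains, where the 1 FOXA-window region was called, these shares were 20.9% and 33%.

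In the SOX2 set, which has 1 list a group and so no replicate check, 14 regions were called (3 at FOXA1, 6 at FOXA2, 5 at FOXA3). With SOX2, 4 were gained over the wild type of the set and 1 was lost, where 33.9% and 17% of 102872 regions were. With the fusion 7 were gained and 2 lost, against 43.7% and 17.1%. With 48142 entries in each list 3 were gained and 4 lost, and no genome-wide share is given for that setting. When only regions without a wild-type entry at any IDR were taken as gained, 0 remained with SOX2 (21.2% of regions) and 2 with the fusion (31.4%), those in the 3′ part of FOXA2 and in TTC6. The fusion had 4 regions that SOX2 lacked (24.3%), SOX2 had 2 that the fusion lacked (14.7%), and 4 were called in all 3 lists (24.7%). With no SOX2 entry at any IDR required, the fusion had 1 such region (5.45%), the one in FOXA2.

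**Figure D5:**
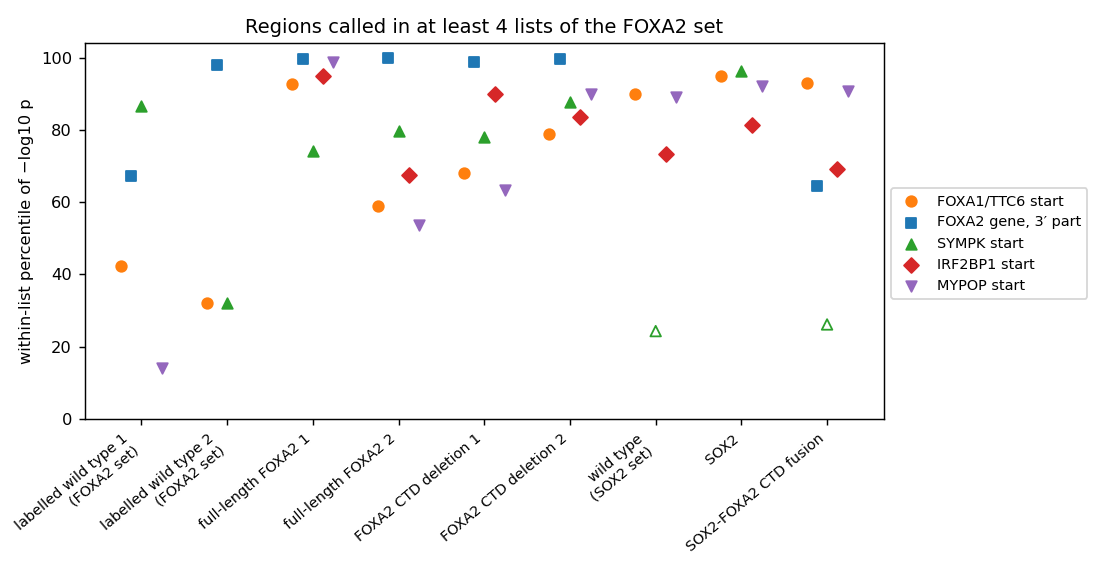
Within-list percentile of −log10 p (100 is the strongest entry) in each of the 9 lists for the 5 regions called in at least 4 lists of the FOXA2 set; hollow markers are SOX2-set entries with an IDR above 0.05, and no marker means no entry. The FOXA2 gene region is at 98.1 or above in 5 lists of the FOXA2 set, at 67.2 in the first labelled wild type and at 64.5 with the fusion.

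The other forkhead genes were read in the same way at their promoters (start site ± 1 kb). Of 51 forkhead genes, the FOXA genes among them, 41 had a start site in the tables used. An entry was present at 5 and 10 of them in the labelled wild types, at 15 and 17 with full-length FOXA2, at 12 and 18 with the CTD deletion, and at 14, 17 and 15 in the SOX2 set. In the same order, 36.8%, 35.2%, 63.7%, 56%, 49.4%, 63.9%, 55.4%, 57.8% and 52.7% of 15813 protein-coding promoters had one, and each forkhead share was lower. No list had an entry at 18 of the 41 forkhead promoters, against 26.5% of all promoters, and 3 had one in every list, against 21.9%. FOXD1, a factor of kidney stroma, and FOXO4, a target of insulin signalling, were gained with full-length FOXA2 (12.2% of promoters were), and FOXD1 also with the CTD deletion (8.42%). Both had entries in the wild type of the SOX2 set. With SOX2, 3 forkhead promoters were gained (8.11% of promoters), FOXC1, FOXP4 and FOXA3 through its SYMPK entry, and 0 were lost (5.65%). With the fusion 4 were gained (6.65%), FOXC1, FOXP4, FOXF2 and FOXK1, and 3 were lost (9.28%), FOXO3, FOXO3B and FOXA2.

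Among 19 genes that work with FOXA factors or mark endoderm, 12 had a start site. Between 2 and 6 of them had an entry per list. That is 16.7% to 50%, where 35.2% to 63.9% of all protein-coding promoters had one, and the share was lower in each list. No list had an entry at 4 of the 12, against 26.5% of all promoters, and 1 had one in every list, against 21.9%. TLE1, a corepressor that FOXA proteins bind, had one in all 9 lists, at percentiles from 48.9 to 99.3. GATA3, a zinc-finger factor that acts with FOXA1 in breast cells, was gained with full-length FOXA2 (percentiles 49.4 and 77.2, 12.2% of promoters). It was also gained with the CTD deletion (63.9 and 81.3, 8.42%). It was called in the wild type of the SOX2 set too (71.2) and not with SOX2 (5.65% of promoters). CDX2, an intestinal factor, and NKX2-1, a lung and thyroid factor, were called in that wild type and with SOX2 but not with the fusion. Of all promoters, 9.28% were called in that wild type and not with the fusion. CDX2 and NKX2-1 also had an entry in the first full-length and second CTD deletion lists, and in neither labelled wild type. ONECUT1, a liver and pancreas factor, was gained with the CTD deletion (68.1 and 51.5, 8.42% of promoters), with SOX2 (89.2, 8.11%) and with the fusion (92.4, 6.65%). It had no entry in any wild type or full-length list. The estrogen receptor gene ESR1, the endoderm genes EOMES and CER1, and LINC00261 had an entry in none. As in the windows, the gains count presence of a peak and were not tested.

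The genes whose promoters ranked most like those of the FOXA genes were found by the mean absolute difference of the percentile over the 9 lists. For FOXA1 they were TAF1A (3.71 percentile points), SNRNP70 (3.83) and SLC12A9 (4.12). For FOXA2 they were BCAR3 (5.14), PPP1R9B (6.63) and MSH3 (7.22), and for FOXA3, whose value comes from the SYMPK region, ARHGAP12 (4.26), CASK (5.65) and MEX3B (6.42).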

How the data were processed

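Chromatin accessibility was read from 9 deposited peak lists. Per the submitters' processing notes, the tools were FastQC 0.10.1, Trim Galore, Bowtie2 2.4.4, SAMtools 0.1.18, MACS2 and deepTools 2.4.1, and the build was hg38. Each FOXA2-set list gives the authors' fold enrichment (a ratio), −log10 p and −log10 q per peak and a score. Each SOX2-set list has the layout of an IDR run on 2 inputs, taken here, without proof in the labels, to be both samples of the group. Its deposited score restates the IDR, and its deposited −log10 p is the lower input. Peak coordinates and summits are the deposited ones, written from 1. Read depth is unknown.

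Entries on chromosomes 1–22 and X that overlapped by at least 1 bp were merged into regions within a set. SOX2-set entries counted as called at an IDR of at most 0.05, while ranks used all entries. Gene models, start sites and promoters came from RefSeq tables (GRCh38.p14). No genome sequence or exon annotation was used, so gene-body shares stand in for coding-exon shares, and motifs were searched in promoters only. FOXA1, FOXA2, FOXA3 and SOX2 were always named, with every region in a FOXA gene or within 1 kb of a FOXA start and the top 3 per window and set by median percentile. Other regions named were chosen after their values were seen. The members and lists were chosen with earlier results of these data known. Python 3.11.15, pandas 2.3.3, numpy 2.4.6 and matplotlib 3.10.9 were used, and the region code was tested on simulated data. No statistical test was made.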

Additional observations from a re-analysis of the deposited data

How the results depend on the processing

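Read depth is unknown, thresholds differ between lists, and a missing peak is not closed chromatin. No paired analysis was possible because no result comes from a test. The counts within lists of the same naming style set single lists side by side and are given with the results. At equal numbers of peaks or entries, 0 regions were gained and 1 lost with the CTD deletion, and 3 gained and 4 lost with the fusion. No genome-wide share is given for these settings, and no direction is read from counts this small. Of the recomputed values 134 stayed within the spread between libraries (counts within 1.5 times) and 52 did not, and the cause was not tested. For gene-body shares and percentiles, leaving out 1 of 2 libraries returns the value of the other, so these values were bound to stay within the spread. The SOX2 set has 1 list a group and so no spread between libraries. The 134 is therefore not a measure of how stable the results are. The spread between libraries is wide where 1 library has a peak and the other none. Near the FOXA2 start the full-length percentile was 49.0, without the first library 98.0, and without the second or within 500 bp 0. Near the FOXA3 start the labelled wild types gave 16.1, without the first library 32.1, and without the second or within 500 bp 0. Without 1 library, regions gained with full-length FOXA2 ranged from 1 to 15, gained with the CTD deletion from 2 to 6, full-length without CTD deletion from 0 to 13, and CTD deletion without full-length from 1 to 3. Leaving out the second full-length library gave 15 and 13, the first 4 and 1, the first labelled wild type 2 gained with full-length FOXA2, and the first and second CTD deletion libraries 5 and 6 gained and 3 each over full-length FOXA2. With a library left out a gain has to hold in fewer libraries, and no genome-wide share is given for these settings.

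At equal numbers of peaks (19862) the CTD deletion gained 0 and lost 1, and had 0 over full-length FOXA2. The lists then held 4 and 5 entries with full-length FOXA2 and 4 and 3 with the CTD deletion. At equal numbers of entries (48142) the fusion gained 3 and lost 4, had 2 over SOX2 and lacked 5, kept 5 entries, and had 0% of the FOXA2 gene body. At a common −log10 p of 5.43, full-length FOXA2 gained 2 and the CTD deletion had 0 over it. Merging peaks under 100 bp apart, chosen after seeing the data, gave 2 gained with full-length FOXA2, and a peak covering at least 50% of a region gave 1 with the CTD deletion.

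With 100 kb flanks the counts were 6 gained with full-length FOXA2 and 4 with the CTD deletion, 2 and 3 between these constructs, 2 lost with SOX2, 11 gained and 6 lost with the fusion, and 8 and 7 between fusion and SOX2. The wider windows take in more sequence and their number of regions is not given, so no change is read from these counts. In the 50 kb windows, with no entry at any IDR, the counts were 0 gained and 0 lost with SOX2, 2 and 0 with the fusion, and 1 and 0 between them. With all entries, 2 were lost with SOX2, 0 were called with SOX2 and not the fusion, entries numbered 14, 16 and 19, and the fusion covered 40.4% of the FOXA2 gene body. Within 500 bp of the start, the group percentile was 0 at FOXA1 for the labelled wild types and full-length FOXA2, and 0 at FOXA3 for full-length FOXA2, the CTD deletion and SOX2.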

Other observations

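The SOX2 gene, the other gene carried by a construct, had part of its body inside peaks in 8 of the 9 lists. The share was 14.5% and 0% in the labelled wild types, 19.9% and 1.75% with full-length FOXA2, and 40.4% and 7.76% with the CTD deletion. In the SOX2 set it was 34.2% in the wild type, 44.2% with SOX2 and 44.9% with the fusion. The libraries of each FOXA2-set group lay far apart.

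The 12 FOXA-window regions called in the first full-length list alone lay at percentiles from 3.96 to 49.4 (median 22.1), and 7 of them were 200 bp wide. The 1 region of that kind in the second full-length list, in the 5′ part of FOXA2, was at percentile 98.0.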
